A study of Mus musculus with 9 samples.

Results

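Female C57BL/6 mice, 7 to 9 weeks old, had anisomycin painted on both sides of the ear, and RNA of the whole ear was compared with that of vehicle-treated ears. The anisomycin group comprised 3 arrays and the vehicle group 3, which are 6 of the 9 arrays of the series. The other 3 came from ears given 10 mg of a 5% imiquimod cream, a ligand of Toll-like receptor 7, and they entered the fit to estimate the spread between arrays and to test where the response to anisomycin differed from another dermatitis. Each side of the ear received 10 µl once a day of a 2 mg/ml solution, made with ethanol of 99.5%, and the series' design gives 5 consecutive days for both treated groups. What the vehicle contained and how long it was applied are not given in the sources used here, so whether control ears received ethanol is not known. The genes were chosen by rule: each of 19938 genes with a single symbol on the array was tested, none was selected by its response, and each group is described by its log2 expression values, on which a difference of 1 is a 2-fold change. Values given for single arrays are levels, and all other values given with a gene or list are differences of anisomycin minus vehicle unless imiquimod is named, both on the log2 scale.

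Anisomycin binds the large ribosomal subunit and stops peptide bond formation. Ribosomes stalled in this way are sensed by the kinase ZAK, the product of Map3k20, which switches on the stress kinases p38 and JNK, and these act on AP-1 transcription factors and on the stability of cytokine messenger RNAs. In skin the same kinases take part in the response of keratinocytes to ultraviolet light and wounding. The ear is a thin sheet in which a pair of epidermal layers encloses dermis, fat, muscle and a plate of cartilage, so RNA from a whole ear mixes many cell types.

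The label of the tissue was checked against marker genes. All 13 keratinocyte markers had a vehicle mean of at least that of Dsg3, 9.16, and the brightest 10% of genes began at a mean of 8.93 over the 9 arrays. Muscle, cartilage and fat were present as well, with vehicle means of 11.55 for the myosin light chain Myl1, 12.29 for the cartilage gene Cytl1 and 12.05 for the fat and muscle gene Car3. In bulk RNA, fewer cells of a type and less RNA per cell cannot be told apart, which bears on every fall and rise of a cell type's genes given here. The arrays of a group were close, with a median SD per gene of 0.078 for anisomycin and 0.098 for vehicle, and the labels do not say whether each array was 1 animal, so p-values measure the spread between these samples. Vehicle replicate 2 stood apart in that muscle genes were higher in it by a median of 0.37 than the vehicle mean and barrier lipid genes differed by -0.29. Without it 8652 genes were called in place of 9095.

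Of the 19938 genes, 45.6% were called, meaning that limma's adjusted p was under 0.05. Called higher were 22.3% and called lower 23.3%, and the median difference over all genes was -0.01. A list of genes is read against these shares, and one with about 22.3% higher and 23.3% lower is no different in its counts from the genes at large. Large changes were mostly rises: 284 genes rose and 55 fell by at least 2 on the log2 scale, and 59 rose and 2 fell by at least 4. For 51.3% of genes every anisomycin array lay on one side of every vehicle array. The calls depended on how bright a gene was. With genes split by level into 10 equal bins, 4.36% were called in the dimmest and 72.8% in the brightest. The shares of all genes are therefore too low a yardstick for a list of bright genes and too high for a dim one. Rises outnumbered falls in the brightest bin (49% against 23.8%), and falls outnumbered rises in the sixth (37.1% against 23.4%). Olfactory receptor genes, which skin is not known to use as a class, gave 43 called of 1027 (4.19%), a number that ran from 9 without the dimmest 30% of genes to 116 with array weights. The median of the deposited values was 6.01 in the anisomycin arrays and 6.08 to 6.10 in the vehicle arrays. The share of calls that were rises, 49%, was 56.4% once array medians were set equal and 37.1% when genes of stable rank were set equal instead, so small changes of a whole group of genes depend on the scaling.

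**Figure D1:**
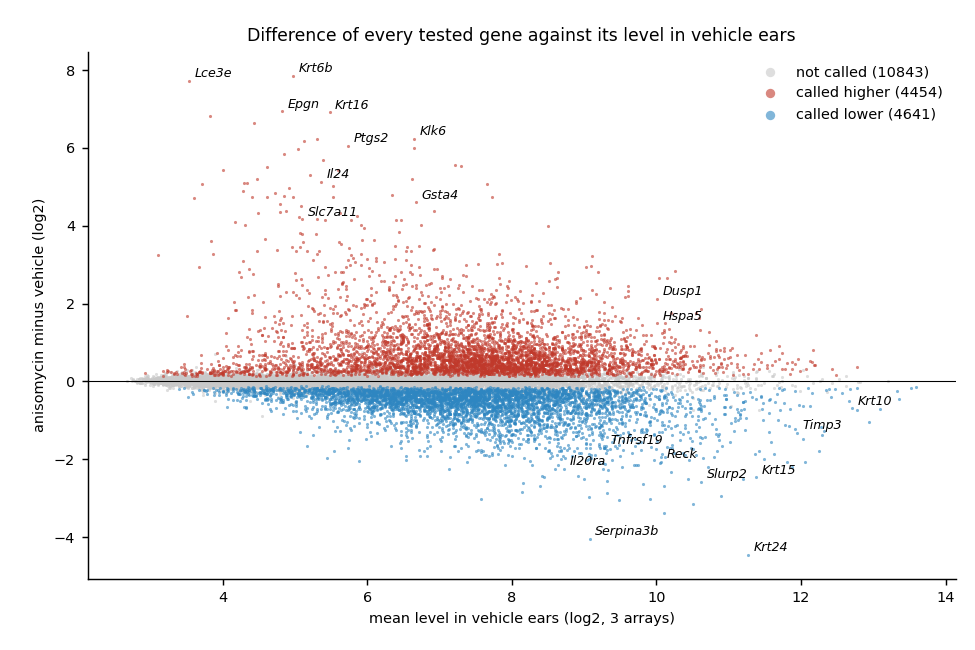
Difference between anisomycin and vehicle ears (log2, y axis) for each of the 19938 tested genes against its mean level in the 3 vehicle arrays (log2, x axis). Red points were called higher and blue points lower, grey points were not called, and the largest rises, such as Lce3e at 7.73 and Krt6b at 7.85, start from low vehicle levels while the largest falls, such as Krt24 at -4.45, start from high ones.

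The largest rises joined keratinocyte structural genes to secreted signals. Epgn, a ligand of the EGF receptor, was at 11.85, 11.80 and 11.64 in the anisomycin arrays and 5.00, 4.68 and 4.78 in the vehicle arrays, a difference of 6.94 (SE 0.12), or 123-fold, with limma's adjusted p = 7.81e-10. Ptgs2, the inducible cyclooxygenase that starts prostaglandin synthesis, was at 11.89, 11.92 and 11.55 in the anisomycin arrays and 5.64, 5.68 and 5.89 in the vehicle arrays, a difference of 6.05 (SE 0.20, adjusted p = 5.74e-08). In both genes every treated array lay over 5 log2 units above every vehicle array. Klk13, a kallikrein protease, was at 11.04, 11.03 and 11.19 in the anisomycin arrays and 5.57, 5.51 and 5.10 in the vehicle arrays (5.70, SE 0.11), and the acute-phase gene Saa3 at 11.11, 10.82 and 10.19 in the anisomycin arrays and 5.01, 4.67 and 4.89 in the vehicle arrays (5.85, SE 0.21). Of the 15 largest rises, 9 were also called higher than in imiquimod ears, among them Epgn by 2.43 (adjusted p = 4.81e-06), Ptgs2 by 1.75 (0.000665) and Defb4 by 1.01 (0.000197). Of all genes 10.8% were so called, and choosing the 15 by their anisomycin values favours such calls. Vehicle levels of the largest rises were often dim, as for Lce3e with a mean of 3.54, and a rise from such a level may be understated.

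The 15 largest falls ran from -4.45 for the keratin Krt24 to -2.58 for Slurp2. Slurp2, a small secreted protein of keratinocytes, was at 7.62, 8.05 and 8.47 in the anisomycin arrays and 10.95, 10.27 and 10.65 in the vehicle arrays, a difference of -2.58 (SE 0.23, adjusted p = 1.71e-05). It set the treatments apart, with a difference from imiquimod ears of -2.42 (adjusted p = 0.000261). The carboxylesterase Ces1d was at 4.88, 5.42 and 5.63 in the anisomycin arrays and 8.12, 8.23 and 8.06 in the vehicle arrays (-2.83, SE 0.19), and Hlf, a clock-driven transcription factor, at 7.0, 7.06 and 7.43 in the anisomycin arrays and 9.95, 9.63 and 9.84 in the vehicle arrays (-2.64, SE 0.18). The epidermal matrix protein gene Flg2 differed by -3.39, and the muscle gene Pvalb by -2.68. The angiopoietin-like gene Angptl7, the guidance molecule Sema3d and the flavin monooxygenase Fmo2 differed by -2.94, -2.86 and -2.60, and the 3 arrays of each group did not overlap for any of these genes, as the rule for naming them requires.

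The promoters of the largest rises were read from a RefSeq table (build GRCm38.p6), which held 162 promoters for 147 of the 200 largest rises, 184 for 155 of the 200 largest falls and 19116 for 15563 of all tested genes. Each window ran from 250 bases before the start to 50 after it, and both strands were searched. The TATA box letters TATAAA were in 31.5% of promoters of rises, 17.9% of those of falls and 11.5% of all. The letters TGANTCA, with N any base, were in 19.8%, 7.07% and 6.88%. They are a loose form of the AP-1 motif of Fos and Jun proteins, which has G or C in the middle, so these are not shares of AP-1 sites. The GC box GGGCGG ran the other way, at 30.9%, 38.6% and 49.3%. Shares of TGANTCA were 17.9% without genes of large families such as Sprr, Lce and Krt, 15.6% for the 500 largest rises and 6.84% for all genes called higher. A match is a description of letters and not a binding site, and related genes share promoter sequence. Rarer letters differed by more in ratio and less in percentage points: GGAATTTCC, a form of the NF-kB motif, was in 6 promoters of rises (3.7%) and 0.377% of all, and TGATGCAA, the core of the element bound by ATF4, in 4 (2.47%) and 0.706%. The STAT motif TTCNNGAA was in 12.3% of promoters of rises and 7.5% of all, the antioxidant response letters TGACNNNGC in 13% and 13.2%, and the E-box CACGTG in 3.09% and 8.26%.

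The TATA letters are shown for the 3 largest rises that hold them, in capitals, in the 250 bases before the start on the gene's own strand. The matches begin -243 bases from the start in Lce3e (chr3:92966811-92967060, plus strand, on the opposite strand of the gene), -86 in Epgn (chr5:91027267-91027516, plus strand) and -31 in Il1b (chr2:129371140-129371389, minus strand). TATAAA beginning 40 to 20 bases before the start on the gene's strand, where a TATA box usually lies, was in 15.4% of promoters of rises, 7.07% of those of falls and 2.32% of all.
Lce3e: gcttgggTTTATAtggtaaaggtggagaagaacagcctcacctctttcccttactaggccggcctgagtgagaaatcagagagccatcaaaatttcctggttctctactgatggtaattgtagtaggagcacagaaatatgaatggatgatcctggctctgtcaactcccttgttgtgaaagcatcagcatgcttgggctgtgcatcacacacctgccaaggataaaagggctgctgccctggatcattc
Epgn: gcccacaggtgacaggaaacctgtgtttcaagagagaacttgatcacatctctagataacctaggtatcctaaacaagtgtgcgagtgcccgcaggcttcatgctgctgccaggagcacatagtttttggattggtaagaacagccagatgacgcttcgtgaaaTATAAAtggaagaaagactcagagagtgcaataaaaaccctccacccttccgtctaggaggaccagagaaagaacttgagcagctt
Il1b: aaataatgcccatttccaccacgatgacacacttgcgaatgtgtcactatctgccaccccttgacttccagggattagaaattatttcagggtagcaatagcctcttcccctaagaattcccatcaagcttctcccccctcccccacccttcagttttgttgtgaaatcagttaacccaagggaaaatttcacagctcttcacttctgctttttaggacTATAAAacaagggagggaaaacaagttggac

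The letters TGANTCA are shown in capitals for 3 large rises that hold them, 1 per gene family, chosen after their values were seen. They begin -111 bases from the start in Sprr1b (chr3:92438780-92439029, minus strand), a cornified envelope precursor that rose by 5.53, -35 in Mmp13 (chr9:7272264-7272513, plus strand), a collagenase that rose by 5.31, and -96 in Rptn (chr3:93393449-93393698, plus strand), the epidermal matrix protein repetin, which rose by 4.73. The 32 promoters of large rises with these letters belonged to 29 genes, which also include Il6, Il1a, Plaur, Serpinb2 and Tnfaip6. Of the matches shown, only that of Mmp13, TGACTCA, has G or C in the middle, and how many of the 32 promoters hold that form was not counted.
Sprr1b: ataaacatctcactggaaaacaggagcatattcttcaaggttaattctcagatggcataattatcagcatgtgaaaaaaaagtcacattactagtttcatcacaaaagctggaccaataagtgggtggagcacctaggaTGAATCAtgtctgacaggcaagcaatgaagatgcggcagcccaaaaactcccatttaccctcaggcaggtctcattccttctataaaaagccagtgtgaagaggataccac
Mmp13: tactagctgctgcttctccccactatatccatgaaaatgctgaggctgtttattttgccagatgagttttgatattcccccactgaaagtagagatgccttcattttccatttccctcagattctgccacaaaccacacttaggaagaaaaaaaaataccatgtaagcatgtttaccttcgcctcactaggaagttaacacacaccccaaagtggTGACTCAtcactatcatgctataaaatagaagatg
Rptn: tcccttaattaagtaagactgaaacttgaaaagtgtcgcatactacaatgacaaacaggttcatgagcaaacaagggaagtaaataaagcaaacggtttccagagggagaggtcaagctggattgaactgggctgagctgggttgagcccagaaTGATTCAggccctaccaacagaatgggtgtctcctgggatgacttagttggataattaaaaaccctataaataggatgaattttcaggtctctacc

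Immediate early genes, which cells switch on within minutes of a stimulus, were high after 5 days of daily treatment. Of 32 AP-1 and immediate early factors, 23 rose, 1 fell and 8 were not called, with a median of 1.22 against -0.01 for all genes. Fosl1, the Fos-like protein of migrating and growing keratinocytes, was at 9.28, 9.25 and 8.98 in the anisomycin arrays and 5.27, 5.28 and 6.39 in the vehicle arrays (3.52, SE 0.27). Atf3, a stress-induced factor, was at 9.81, 9.68 and 9.37 in the anisomycin arrays and 7.40, 7.33 and 7.27 in the vehicle arrays (2.29), and Fos itself rose by 2.15, Junb by 1.79, Nr4a3 by 2.24 and Jun by 0.87. Jund and Egr3 were not called, at 0.07 and -0.00. Of these 32 genes, 18 were called higher and 1 lower than in imiquimod ears, where 10.8% of all genes were called higher and 9.59% lower.

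Most phosphatases that switch MAP kinases off rose. Of 14 dual-specificity phosphatases 10 rose and 2 fell. Dusp1, which acts on p38 and JNK, was at 12.19, 12.18 and 12.04 in the anisomycin arrays and 10.05, 9.94 and 10.03 in the vehicle arrays (2.13, SE 0.18), so its groups were far apart. Dusp5 and Dusp6, which act on ERK, rose by 2.47 and 1.75, Dusp16 by 1.75 and Dusp10 by 0.85, while Dusp22 fell, at -0.78. In the p38 list 8 of 20 genes rose and 3 fell, a balance that was 6 to 6 with arrays centred on stable genes and 8 to 5 without anisomycin replicate 1. Zfp36, whose protein destroys cytokine messenger RNAs, rose by 2.07, and the p38 effector kinase Mapkapk2 by 0.81. Map2k3 rose by 0.69 while Map2k6, which codes for the other main activator of p38, differed by -1.04. Map3k20, which codes for ZAK, rose by 0.31, p38 alpha (Mapk14) differed by -0.06 and was not called, and p38 gamma (Mapk12), which muscle makes in quantity, differed by -0.75. Of 24 genes of the JNK and ERK kinases, their activators and regulators 12 rose and 6 fell, or 12 and 3 without anisomycin replicate 1 or vehicle replicate 1 or 3. The Gadd45b gene, whose protein activates a kinase above p38 and JNK, rose by 2.22 and the atypical kinase gene Mapk6 by 1.75, Map2k4, upstream of JNK, rose by 0.74, and Map3k1 fell, at -1.12.

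Translation was where the machinery divided. Of 47 ribosome biogenesis genes, which build new ribosomes in the nucleolus, 46 rose, with a median of 0.97 and array medians of 0.98, 0.97 and 1.02. Imiquimod ears had a similar rise, with a median of 0.86 against vehicle. The assembly factor Pno1 rose by 1.65 and the box C/D proteins Nop56 and Nop58 by 1.64 and 1.60. The ribosomal proteins themselves did not follow: of 56 measured, 4 rose and 20 fell, with a median of -0.14. Rps28 and Rps20 fell by 0.65 and 0.60, and Rpl12 rose by 0.70. With the quantile normalization repeated 44 of the 56 were called, 43 of them lower, so how many fell depends on the scaling. Without anisomycin replicate 3 or vehicle replicate 3, 2 of these proteins were called higher. Ribosomal protein genes have many near-identical pseudogenes, and their probe sets may share signal with them.

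Most factors that use the ribosome rose as well. Of 44 initiation and elongation factors 29 rose and 4 fell, or 27 and 11 with the quantile normalization repeated and 28 and 7 with arrays centred on stable genes. Without vehicle replicate 3 it was 29 and 2. Among them were Eif1a up by 1.57, Eif6, which keeps the large subunit from joining, at 1.49, and the cap-binding protein Eif4e up by 1.26. Eef2k, the kinase that slows elongation, differed by -1.27, and Eef1a2, the elongation factor form of muscle and nerve, by -0.72. Among aminoacyl-tRNA synthetases and their partners, which load transfer RNAs with amino acids, 19 of 21 cytosolic genes rose and none fell, with a median of 0.58, Eef1e1 up by 1.65 and Rars up by 1.14. The mitochondrial counterparts gave 4 higher and 3 lower of 16 (25% and 18.8%), close to the shares of all genes, at a median of -0.03. Their mean level was 7.02 to 7.08 in the vehicle arrays, and genes of mean level 6.53 to 7.12 gave 23.4% higher and 37.1% lower. The counts of the mitochondrial synthetases were 3 and 6 with arrays centred on stable genes and 2 and 2 without anisomycin replicate 2. Of 72 mitochondrial ribosomal proteins 35 rose and 1 fell, but by a median of 0.20. Imiquimod ears rose similarly against vehicle, by a median of 0.67 for the cytosolic synthetases and 0.32 for the mitochondrial ribosomal proteins. For the initiation and elongation factors the median was 0.51 with either treatment.

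Genes of the integrated stress response, through which cells adapt when translation is slowed, were split. Of 24 genes 11 rose and 7 fell. Slc7a11, which imports cystine, was at 9.04, 9.56 and 9.19 in the anisomycin arrays and 4.93, 4.90 and 5.45 in the vehicle arrays (4.17, SE 0.17, adjusted p = 1.79e-07). The asparagine synthetase gene Asns rose by 1.23, the phosphatase subunit Ppp1r15a by 1.22, Atf4 by 0.75 and Ddit3 by 0.65, while Trib3 differed by 0.30 and was not called. The stress hormone gene Stc2, Sesn3, Vldlr and Cbs fell, at -1.35, -1.31, -1.27 and -1.25. Amino acid transporters were as divided, 13 higher and 11 lower of 29: Slc6a14 rose by 2.73, Slc7a1 by 1.12 and Slc7a5 by 1.08, and the glycine carrier Slc6a9 differed by -1.63.

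Most chaperone genes of the endoplasmic reticulum and most proteasome genes rose. Of 26 chaperones and sensors of the endoplasmic reticulum 23 rose and 1 fell, with Dnajb9 up by 1.25 and Hyou1 up by 1.18. The cytosolic chaperonin CCT and prefoldin gave 10 higher and 1 lower of 14, with Cct6a up by 1.20, and the proteasome 28 higher and none lower of 36, at a median of 0.36. In imiquimod ears the median against vehicle was 0.63 for the endoplasmic reticulum list, where anisomycin gave 0.57, and 0.52 for the proteasome. Heat shock genes were mixed, with 11 of 24 higher and 8 lower (45.8% and 33.3%), and the lower ones numbered 5 without anisomycin replicate 1. Hsp90aa1 rose by 1.64 and the mitochondrial chaperonin Hspd1 by 1.15, and Hspb6, a small heat shock protein of muscle, fell by 0.71. The stress-inducible Hspa1a differed by -0.40 with adjusted p = 0.017, and its call ended without anisomycin replicate 1 or vehicle replicate 1 or 3, where p reached 0.0608.

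Glutathione enzymes moved in opposite directions within one family. Gsta4, which clears lipid aldehydes, was at 11.26, 11.29 and 11.29 in the anisomycin arrays and 6.75, 6.74 and 6.55 in the vehicle arrays (4.60, SE 0.06). Gstm1 was at 7.55, 8.12 and 8.18 in the anisomycin arrays and 10.09, 9.73 and 10.10 in the vehicle arrays (-2.03, SE 0.16), and Gstm5, Gstm2 and Gsta3 fell as well, at -1.67, -1.13 and -1.02. In each of the first 2 genes the groups were far apart, in opposite senses. Among other targets of NRF2, the regulator of the oxidant response, Hmox1 rose by 1.75 and Gsr by 1.56, and Nfe2l2, which codes for NRF2, by 1.13. The list gave 16 higher and 12 lower of 38, a balance of 14 to 15 with arrays centred on stable genes. Of 21 targets of p53 9 rose and 5 fell (42.9% and 23.8%), or 8 and 8 with arrays centred on stable genes and 9 and 3 without anisomycin replicate 1 or 2, with the Polo-like kinases Plk2 and Plk3 at 3.13 and 2.46 and Sesn1 at -1.48. The metallothionein Mt4 of stratified epithelium was at 7.0, 6.51 and 7.13 in the anisomycin arrays and 10.12, 9.52 and 10.10 in the vehicle arrays (-3.03), while Mt1 rose by 0.44 and the zinc importer Slc39a14 by 2.44.

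**Figure D2:**
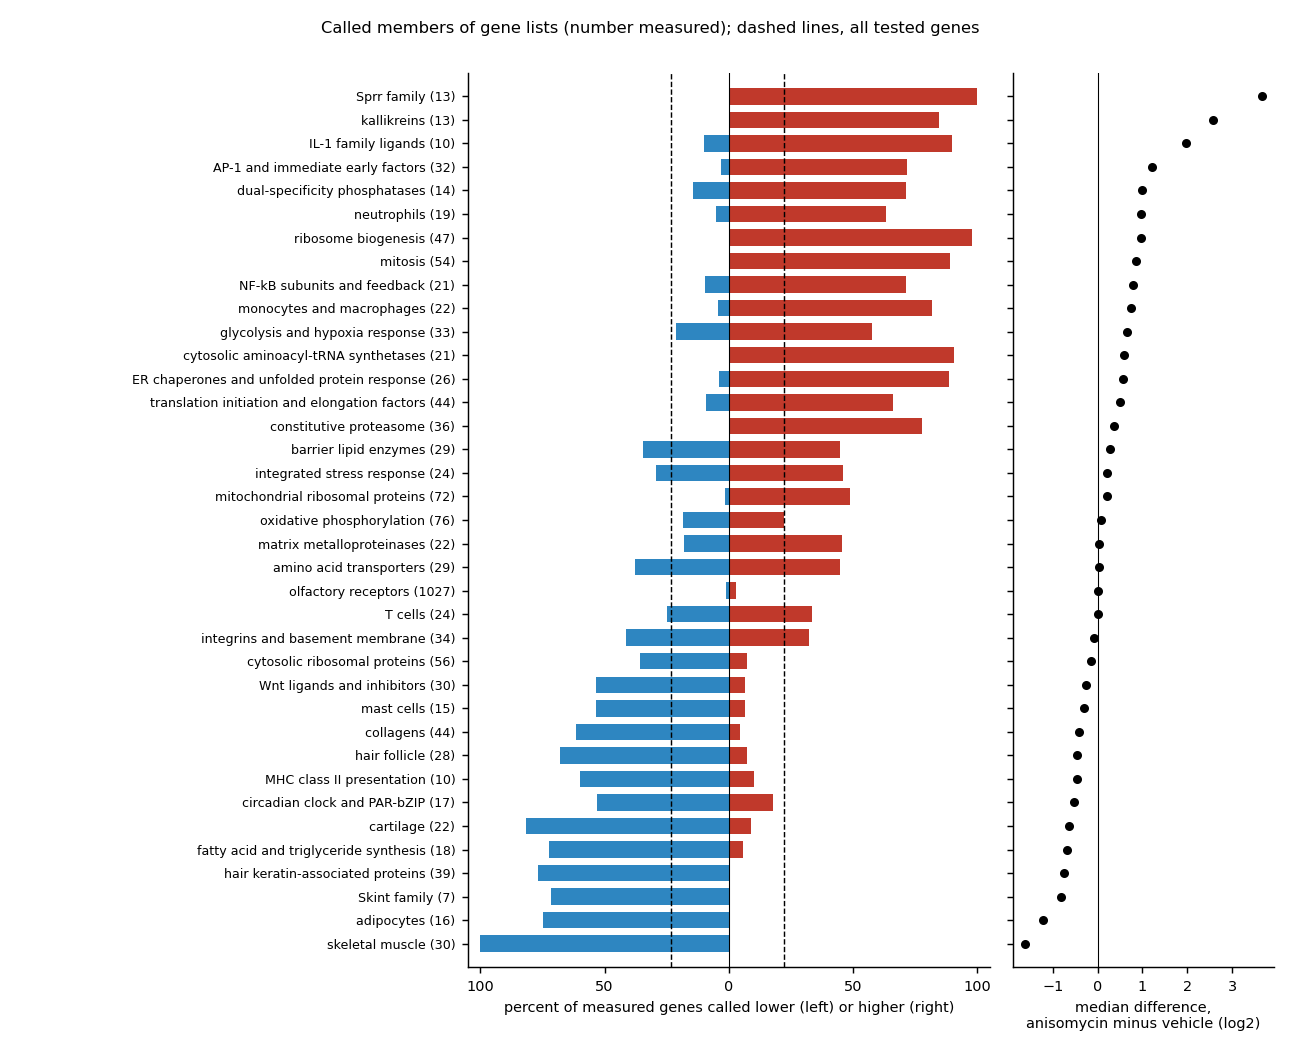
Share of the measured genes of 37 lists that were called lower (blue, left) or higher (red, right) in anisomycin ears, with the median difference of each list (log2) at the right. Dashed lines mark the shares over all tested genes, 23.3% lower and 22.3% higher, and lists run from the Sprr family (median 3.67) at the top to skeletal muscle (-1.62) at the bottom.

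Ligands of the EGF receptor family, which drive keratinocyte growth, did not move as a block. Beside Epgn, the neuregulin Nrg1 was at 9.48, 9.14 and 8.95 in the anisomycin arrays and 5.55, 5.55 and 5.74 in the vehicle arrays (3.58, SE 0.12) and Hbegf at 9.75, 10.08 and 10.16 in the anisomycin arrays and 6.57, 6.49 and 6.58 in the vehicle arrays (3.45, SE 0.12). Tgfa rose by 1.51, Btc fell by 0.59, and Ereg differed by 0.17 and was not called. Of the receptors Egfr rose by 0.58, and of the inhibitors of their signalling Errfi1 rose by 1.03 while Lrig3 and Spry1 fell, at -1.3 and -1.02.

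Of 7 cytokines of the IL-6 family 4 rose and 1 fell. Il6 was at 7.90, 7.20 and 6.36 in the anisomycin arrays and 3.75, 3.94 and 3.93 in the vehicle arrays (3.28, SE 0.39), and oncostatin M (Osm) at 8.85, 9.43 and 8.81 in the anisomycin arrays and 5.76, 5.48 and 6.07 in the vehicle arrays (3.26, SE 0.26). The 3 anisomycin arrays were spread over 1.54 log2 units for Il6 and all lay above the vehicle arrays. Clcf1 rose by 2.48 and Lif by 0.90, and Il11 differed by 0.29 and was not called. The oncostatin receptor Osmr rose by 1.74, Stat3 by 0.86 and the feedback inhibitor Socs3 by 2.4, whereas the receptor chains Il6ra and Lifr fell, at -0.70 and -1.08. Il6 was higher than in imiquimod ears by 2.39 (adjusted p = 0.00334) and Clcf1 by 1.40 (3.83e-05).

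In the IL-20 family a ligand rose while the receptor chains fell. Il24 was at 10.52, 10.63 and 10.30 in the anisomycin arrays and 5.44, 5.48 and 5.15 in the vehicle arrays (5.13, SE 0.10). Il20ra, a chain of its receptor, was at 6.53, 6.39 and 6.54 in the anisomycin arrays and 8.83, 8.27 and 9.06 in the vehicle arrays (-2.24, SE 0.20), and Il20rb, the chain shared by both receptors of IL-24, at 7.32, 7.63 and 7.92 in the anisomycin arrays and 9.29, 8.89 and 9.19 in the vehicle arrays (-1.50, SE 0.15). The groups did not overlap for any of the 3. Il19 rose by 0.99, and Il20 differed by 0.06. Il22ra2, which codes for a soluble decoy for IL-22, fell by 0.98, and the IL-10 receptor gene Il10ra rose by 1.28.

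Of 10 ligands of the IL-1 family 9 rose and 1 fell. The alarmin Il33 rose by 2.8, Il1f8 (IL-36 beta) by 2.51 and Il1f9 (IL-36 gamma) by 2.43. The vehicle arrays of this list were uneven, with medians of 0.31, -0.51 and 0.16 around their mean. Among sensors Nlrp3 and Mefv rose by 3.36 and 1.74, Casp1 differed by -0.04 and the adaptor Pycard fell by 0.99. Tslp, the epithelial cytokine of type 2 inflammation, rose by 2.34 and the receptor Il4ra by 2.53, while Il5, Il13 and Il31 differed by -0.04, -0.05 and -0.05 and not called.

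Colony stimulating factors and chemokines followed. The receptor of G-CSF, Csf3r, was at 9.98, 9.81 and 9.34 in the anisomycin arrays and 5.31, 4.83 and 4.78 in the vehicle arrays (4.74, SE 0.18), while its ligand Csf3 rose by 0.70 from a vehicle mean of 5.40. Il34, the keratinocyte ligand of the CSF-1 receptor that maintains Langerhans cells, was at 7.05, 7.06 and 7.49 in the anisomycin arrays and 9.22, 9.00 and 9.05 in the vehicle arrays (-1.89, SE 0.12). Of 7 neutrophil-attracting chemokines 6 rose, and 5 were higher than in imiquimod ears, among them Ppbp, which rose by 4.34, and Cxcl3 (3.18). The number higher than in imiquimod ears, where 10.8% of all genes were, ran from 4 to 6 with 1 array left out. The monocyte chemokines Ccl6 and Ccl9 rose by 2.36 and 2.31, and the chemokine receptors Ccr1 and Cxcr4 by 4.72 and 2.81. Ccr4, a receptor of skin-homing T cells, fell by 1.3, and Cx3cl1 by 1.04.

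Genes of the TGF-beta superfamily and of Wnt ligands and inhibitors fell more often than they rose. Activin A, coded by Inhba, and its antagonist follistatin (Fst), both known from healing wounds, rose by 3.49 and 2.02, but of 23 ligands and antagonists of that superfamily 12 fell, among them Tgfb3 at -1.70, Bmp5 at -1.41 and Tgfb2 at -1.24. Of 30 Wnt ligands and inhibitors 2 rose and 16 fell. The largest of these falls were in secreted inhibitors: Wif1 was at 7.96, 8.66 and 8.66 in the anisomycin arrays and 10.27, 10.63 and 10.45 in the vehicle arrays (-2.02, SE 0.17) and Frzb at 6.76, 7.73 and 7.60 in the anisomycin arrays and 9.09, 9.58 and 9.46 in the vehicle arrays (-2.01, SE 0.24), and Sfrp2 and Sostdc1 differed by -1.85 and -1.64. Of 24 ligands of the FGF, VEGF, PDGF and HGF families, with insulin-like factors, 7 rose and 10 fell, or 7 and 7 with array medians set equal. Igf2 and Igf1 fell by 1.72 and 1.04, and keratinocyte growth factor Fgf7 rose by 1.42. Tnf rose by 1.94, and of its receptor family Tnfrsf23, which codes for a decoy receptor, rose by 3.35 and Tnfrsf19 fell by 1.71.

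**Figure D3:**
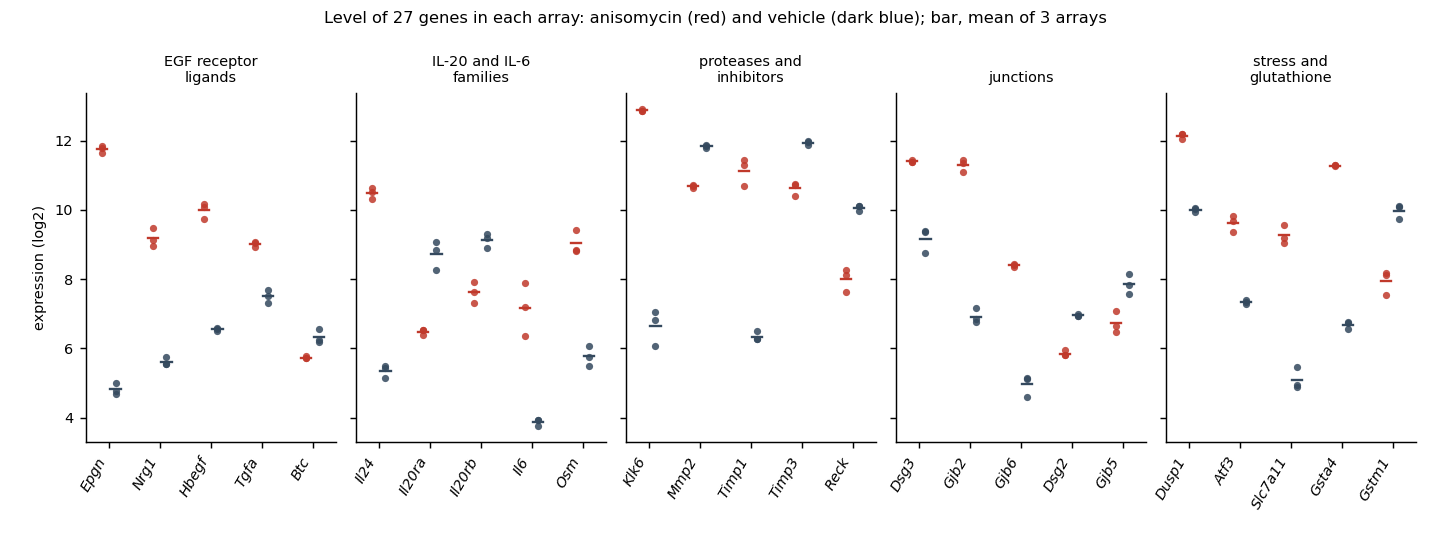
Expression (log2, y axis) of the genes labelled on the x axis in each of the 3 anisomycin arrays (red) and 3 vehicle arrays (dark blue), with bars at the means. Il24 rises from 5.36 to 10.48 while its receptor chain Il20ra falls from 8.72 to 6.49, and Gsta4 and Gstm1 move in opposite directions.

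In the epidermis stress keratins rose while keratins of resting skin were divided. All 4 stress keratins rose, and of 12 keratins of resting epidermis 3 rose, 6 fell and 3 were not called. The suprabasal pair divided: Krt1 was at 11.10, 11.42 and 12.04 in the anisomycin arrays and 10.46, 9.74 and 10.32 in the vehicle arrays (1.35, SE 0.24), while its partner Krt10 was at 11.62, 12.11 and 12.33 in the anisomycin arrays and 12.84, 12.60 and 12.68 in the vehicle arrays (-0.69, SE 0.15). Krt15, of the bulge and basal layer, was at 8.40, 9.10 and 9.26 in the anisomycin arrays and 11.51, 11.29 and 11.32 in the vehicle arrays (-2.46, SE 0.21), whereas the basal keratin Krt14 rose by 0.80 and Krt5 differed by 0.14 and was not called. Among late cornified envelope genes all 5 measured Lce3 genes rose, and of 13 Lce1 genes 6 rose, 1 fell and 6 were not called, with a range of -0.61 for Lce1l to 1.32 for Lce1k. The call of Lce1l ended without anisomycin replicate 1 or 2, without vehicle replicate 1 or 3 and with the 6 arrays alone, where adjusted p reached 0.0895. Members of the Sprr2, Lce and Stfa families are near-identical, so their single values are uncertain.

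Kallikreins, which are serine proteases that cut the bonds between corneocytes, rose in 11 of 13 cases and none fell. Klk10 rose by 4.73, Klk14 by 4.15, Klk9 by 3.99, Klk8 by 2.58 and Klk5, which starts the cascade, by 0.89. Their inhibitor Spink5 rose by 1.33, and the elastase inhibitor Slpi by 3.63. Of clade B serpins Serpinb3a and Serpinb2 rose by 3.24 and 2.45, and Serpinb13 and Serpinb7 differed by -1.65 and -1.40.

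Among genes of cell contacts those of the desmosome mostly rose, with 9 higher and 1 lower of 13. Connexins and pannexins gave 4 higher and 3 lower of 19 (21.1% and 15.8%) and tight junction genes 7 and 7 of 28 (25% and 25%). All genes gave 22.3% and 23.3%, so these 2 counts show no shift of either family. Integrin and basement membrane genes gave 11 higher and 14 lower of 34. The desmosomal cadherin Dsc2 was at 9.87, 9.51 and 9.29 in the anisomycin arrays and 5.36, 5.25 and 5.65 in the vehicle arrays (4.14, SE 0.14), Dsg3 rose by 2.25, and Dsg2 fell by 1.10. The connexin Gjb2 was at 11.09, 11.43 and 11.35 in the anisomycin arrays and 6.84, 6.76 and 7.16 in the vehicle arrays (4.37, SE 0.11), and Gjb6 rose by 3.45 while Gjb5 fell by 1.12. Of the tight junction genes Cldn4 rose by 2.07 and Cldn1 by 0.63, and Tjp3 and Cgn fell, at -1.28 and -0.89. Integrins Itga3, Itga2 and Itgb6, the last of which wounded epithelium makes, rose by 2.11, 1.83 and 1.33. The laminin chains Lama5 and Lama2 differed by -1.27 and -1.79, and collagens VII and XVII, which anchor the epidermis, by -0.81 and -0.45.

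Lipid barrier enzymes were divided. Of 29, 13 rose and 10 fell, or 11 and 11 with the quantile normalization repeated. The desaturase Degs2, the ceramide glucosyltransferase Ugcg, the lipoxygenase Alox12b and the ceramide synthase Cers3 rose by 3.85, 2.26, 2.05 and 1.89. The ceramidase Acer1 and the lipid hydrolases Abhd12b and Pnpla3 differed by -1.14, -1.92 and -1.53. Among regulators of keratinocyte fate the ETS factors Elf3, Ehf and Elf5 rose by 4.52, 3.04 and 2.60 and Prdm1 by 2.03, while Pou2f3, Tfap2b and Gata3 differed by -1.67, -1.65 and -1.35. Of 7 Skint genes, relatives of the gene that selects epidermal gamma-delta T cells, 5 fell and none rose. The gasdermin gene Gsdmc, which codes for a pore-forming protein, rose by 3.35.

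The balance of matrix proteases and their inhibitors shifted in several directions. Mmp13 was at 10.88, 10.65 and 10.04 in the anisomycin arrays and 5.56, 5.18 and 4.89 in the vehicle arrays, and Timp1, an inhibitor, at 11.43, 11.29 and 10.68 in the anisomycin arrays and 6.26, 6.51 and 6.26 in the vehicle arrays (4.79, SE 0.18). The other inhibitors all fell: Reck was at 7.62, 8.12 and 8.25 in the anisomycin arrays and 9.96, 10.11 and 10.10 in the vehicle arrays (-2.06, SE 0.14), and Timp4, Timp3 and Timp2 at -1.68, -1.32 and -1.27. The gelatinase of fibroblasts, Mmp2, fell as well, at -1.15, while Mmp9, Mmp19 and Mmp3 rose by 1.74, 1.60 and 1.15. The receptor of urokinase, Plaur, rose by 3.10 and the metalloproteinase gene Adam8 by 2.90.

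Of 44 collagen genes 2 rose and 27 fell, with a median of -0.41; the rises were those of Col12a1, by 0.85, and Col18a1, by 0.50. Col8a1 differed by -1.79 and Col1a2 by -1.57. Genes of the hyaluronan matrix of wounds rose, with 10 of 17 higher and 3 lower: the synthases Has3 and Has2 by 2.69 and 2.21, the linker Tnfaip6 by 2.51, tenascin C (Tnc) by 2.33 and the receptor Cd44 by 2.20. Fibronectin (Fn1) and periostin (Postn), also wound proteins, differed by -0.99 and -1.22. Of these 17 genes 9 were higher than in imiquimod ears and 2 lower, against 10.8% and 9.59% of all genes. With 1 array left out 7 to 9 were higher and 0 to 2 lower.

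Leukocyte markers differed by type. Of 19 neutrophil markers 12 rose and 1 fell. The chemokine receptor Cxcr2 rose by 4.97 and Trem1 by 5.43. Granule genes that marrow precursors transcribe, Mpo, Elane, Camp and Ngp, were not called, with differences of 0.08, 0.12, 0.02 and 0.16, while the granule gene Ltf rose by 0.76. Of 22 monocyte and macrophage markers 18 rose and 1 fell. The scavenger receptor Msr1 rose by 2.06 and Ccr2 by 1.89, the efferocytosis receptor Mertk fell by 0.98, and Csf1r differed by -0.01. The C-type lectin Clec7a, which binds fungal glucan, rose by 4.22, and Clec10a and Mgl2, lectins of dermal macrophages and dendritic cells, fell, at -0.84 and -1.71. The Fc receptors Fcgr1, Fcgr4 and Fcgr3 rose by 2.30, 2.20 and 1.58.

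Of 25 markers of dendritic and Langerhans cells 8 rose and 8 fell (32% and 32%), or 7 and 11 with arrays centred on stable genes. Of 10 class II presentation genes 6 fell, with H2-Ab1 at 9.88, 10.26 and 10.26 in the anisomycin arrays and 11.28, 10.92 and 11.19 in the vehicle arrays (-1.0, SE 0.13) and Cd74 at -0.85, and the Langerhans marker Cd207 fell by 0.83. Among the 8 markers that rose were Cd80 by 2.84, Fscn1 by 2.35 and Ccr7 by 1.87. Of 24 T cell markers 8 rose and 6 fell (33.3% and 25%), or 6 and 7 with arrays centred on stable genes and 7 and 3 without vehicle replicate 1. Cd3g was at 5.65, 5.87 and 6.08 in the anisomycin arrays and 7.53, 6.42 and 7.41 in the vehicle arrays (-1.26, SE 0.27) and Cd3e at -0.54, while Cd4 and Cd8a differed by 0.12 and 0.08 and Il2ra rose by 1.02. Of 15 mast cell markers 8 fell, among them Mrgprb2 at -0.85 and Tpsb2 at -0.66, and the 1 that rose was the histidine decarboxylase gene Hdc, at 9.88, 10.31 and 9.69 in the anisomycin arrays and 6.33, 6.91 and 6.58 in the vehicle arrays (3.35, SE 0.22). Hdc makes histamine and is also made by neutrophils and macrophages. Of 30 interferon-stimulated genes 17 rose and 1 fell, with Trim30a up by 2.20 and Oasl2 up by 1.72. Without anisomycin replicate 1 or 2 the number of rises was 12. Of 16 GTPases and regulators of the interferon gamma response 4 rose and 1 fell (25% and 6.25%), a share of rises close to the 22.3% of all genes. Their mean level was 6.05 to 6.11 in the vehicle arrays, and genes of mean level 5.92 to 6.53 gave 16.2% higher and 34% lower. Ifngr2 rose by 0.43, and interferon gamma itself (Ifng) differed by 0.05 and was not called.

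Innate sensing genes rose widely. Of 19 Toll-like receptors and adaptors 14 rose and 2 fell, with Tlr13 up by 3.46, Cd14 up by 3.43 and Tlr1 up by 1.94. Of 21 NF-kB subunits and feedback genes 15 rose and 2 fell, with Bcl3 up by 2.65 and the inhibitor Tnfaip3 up by 1.84. Of 26 complement genes 8 rose and 8 fell (30.8% and 30.8%): the receptors C5ar1 and C3ar1 rose by 2.37 and 1.81, and the protectors Cd59a, Cd55 and Serping1 differed by -1.43, -0.89 and -0.85. Among prostaglandin and lipoxygenase genes, the prostaglandin synthase Ptges rose by 1.39 and the phospholipase Pla2g4e by 3.39, and the lipoxygenases Alox12 and Alox12e differed by -1.50 and -3.16. Among adhesion and vasoactive genes adrenomedullin (Adm) rose by 3.93, endothelin 1 (Edn1) by 3.18 and Icam1 by 1.73. The blood endothelium markers gave 5 higher and 5 lower of 16 (31.2% and 31.2%), and of the endothelial markers Cdh5 rose by 0.88 and Tek fell by 0.69.

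Genes of deep tissue fell together. Each of the 30 muscle genes was called lower, at a median of -1.62, and anisomycin arrays were at -1.67, -1.63 and -1.52 against -0.14, 0.37 and -0.23 in the vehicle arrays. The median stayed between -1.75 and -1.40 with any 1 of the 9 arrays left out. The fast fibre genes Pvalb and Actn3 differed by -2.68 and -2.45, and the slow fibre genes Tnnc1 and Myh7 by -0.69 and -1.14. Of 22 cartilage genes 18 fell, with Fmod at -2.50 and Ucma at -1.90, and 2 rose, Prg4 by 2.77 and Sox9 by 0.96. Adipocyte genes gave 12 lower and none higher of 16, with Lep at -1.48 and Fabp4 at -1.39. Of 39 hair keratin-associated proteins 30 fell and none rose, and the stem cell receptors Lgr6 and Lgr5 fell by 1.84 and 0.80. Vehicle replicate 3 held the highest hair keratin-associated levels, 0.37 above the vehicle mean. Schwann cell genes fell in 7 of 11 cases, with S100b at -1.23. In the same arrays the mean over the 13 keratinocyte markers was 11.55, 11.70 and 11.81, against 11.47, 11.10 and 11.36 in vehicle ears, with 6 called higher and 2 lower. Imiquimod ears shared the falls of muscle, cartilage and adipocyte genes, with medians against vehicle of -1.73, -0.72 and -0.90. The anisomycin medians were -1.62, -0.64 and -1.22. What part a changed mixture of tissues has in these falls was not tested.

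Most glycolysis genes rose and most genes of fat synthesis fell. Of 33 genes of glycolysis and the hypoxia response 19 rose and 7 fell. Pgk1 rose by 1.85, the lactate exporter Slc16a3 by 2.45 and Hif1a by 1.44, and the muscle forms Pfkm and Eno3 fell, at -1.35 and -0.98. Of 18 genes of fatty acid and triglyceride synthesis 13 fell and 1 rose, with Gpam at -1.23, Srebf1 at -1.18, Scd1 at -1.04 and Dgat1 up by 1.07. The respiratory chain gave 17 higher and 14 lower of 76 (22.4% and 18.4%), against 22.3% and 23.3% of all genes. These genes were bright, with a mean level of 8.98 to 9.03 in the vehicle arrays. In all 40.8% of them were called, where 72.8% of the brightest 10% of genes were. The balance of the respiratory chain was 5 to 29 with the quantile normalization repeated and 11 to 19 without anisomycin replicate 3. The subunits made in muscle, Cox8b, Cox6a2 and Cox7a1, differed by -1.17, -1.10 and -1.0. Cytochrome P450 genes rose in 8 and fell in 16 of 38 cases (21.1% and 42.1%), with Cyp2b19, the enzyme of differentiated keratinocytes, at -2.19 and Cyp7b1 up by 2.63.

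Clock genes fell more often than they rose. Of 17, 9 fell and 3 rose. Besides Hlf, Per3 differed by -1.42, Rora by -1.25, Tef by -1.22 and Cry2 by -1.10, the repressors Nfil3 and Bhlhe40 rose by 1.95 and 1.47, and Nr1d1 and Per1 differed by 0.04 and 0.20. No hour of collection is given in the sources used here.

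Cell division genes rose, and by amounts that differed between the anisomycin arrays. Of 54 mitotic genes 48 rose and none fell, with Bub1 up by 1.53 and Ncaph up by 1.47. The median over the list was 0.48, 0.90 and 1.18 above the vehicle mean in anisomycin replicates 1, 2 and 3. Of the 54 genes 45 were called lower than in imiquimod ears, where 9.59% of all genes were, but the number ranged from 20 without imiquimod replicate 2 to 47 without anisomycin replicate 3, and it was 25 without anisomycin replicate 2, 21 and 22 without imiquimod replicates 1 and 3 and 28 without anisomycin replicate 1. Replication genes gave 34 higher and 1 lower of 58, with E2f7 up by 2.18 and Rrm2 up by 1.77. Ccnd2 was the 1 that fell, at -0.96.

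**Figure D4:**
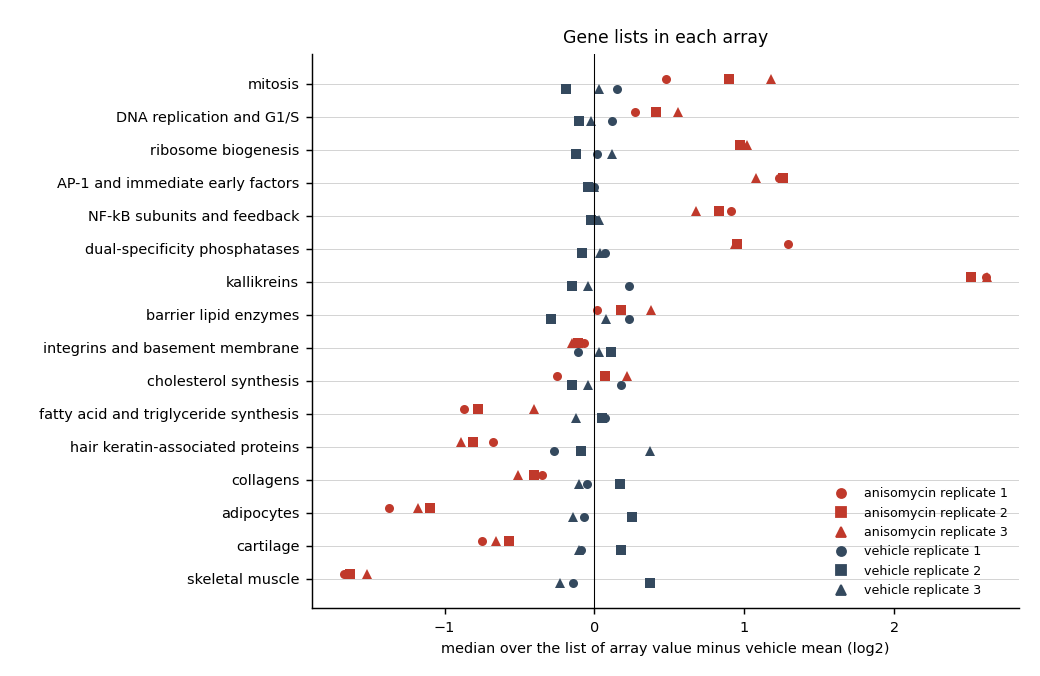
Median over 16 gene lists of each array's value minus the vehicle mean (log2, x axis), for the 3 anisomycin arrays (red) and 3 vehicle arrays (dark blue), with a symbol per replicate. Mitosis spreads from 0.48 to 1.18 over the anisomycin arrays while ribosome biogenesis stays between 0.97 and 1.02, and vehicle replicate 2 is the highest vehicle array for muscle, fat, cartilage and collagens.

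The 3 anisomycin arrays differed from one another in a part of the response. Replicate 1 was lowest of the 3 for 2376 of the 4641 genes called lower, against 1127 for replicate 2 and 1099 for replicate 3, and the median fall of those genes was -0.53, -0.49 and -0.45. For genes called higher the medians were 0.57, 0.58 and 0.55. Among the 12 called genes with the widest range over these arrays, Il6, the pattern recognition gene Ptx3 and Dynap were highest in replicate 1 and lowest in replicate 3. Dynap, an activator of Akt, was at 8.5, 7.07 and 6.55 in the anisomycin arrays and 4.30, 4.23 and 4.31 in the vehicle arrays (3.10, SE 0.39) and differed by -0.04 between imiquimod and vehicle ears and by 3.13 between the treatments (adjusted p = 0.00101). Genes of upper epidermis and sebaceous gland ran the other way. Krt2, a keratin of the upper epidermis, was at 9.65, 10.67 and 11.09 in the anisomycin arrays and 12.41, 12.08 and 12.27 in the vehicle arrays (-1.78, SE 0.30), histidase (Hal) at 8.64, 9.36 and 10.04 in the anisomycin arrays and 11.20, 10.49 and 10.89 in the vehicle arrays (-1.51, SE 0.31) and Fa2h, which makes the hydroxylated fatty acids of sebum and barrier, at 8.22, 9.39 and 9.99 in the anisomycin arrays and 10.57, 10.18 and 10.43 in the vehicle arrays. The call of Fa2h (difference -1.19) ended without vehicle replicate 1 or 3 and with the 6 arrays alone, where adjusted p reached 0.0786. That of Hsd3b6 (-1.39) ended without vehicle replicate 1 or 3 or anisomycin replicate 1 or 2, where it reached 0.0946. Cyp2g1 and Alox12e did not share this order, with their highest anisomycin value in replicate 3 and the lowest in replicate 2. With anisomycin replicate 1 left out 8491 genes were called, and 8146 of them had been called in the same direction with all arrays.

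**Figure D5:**
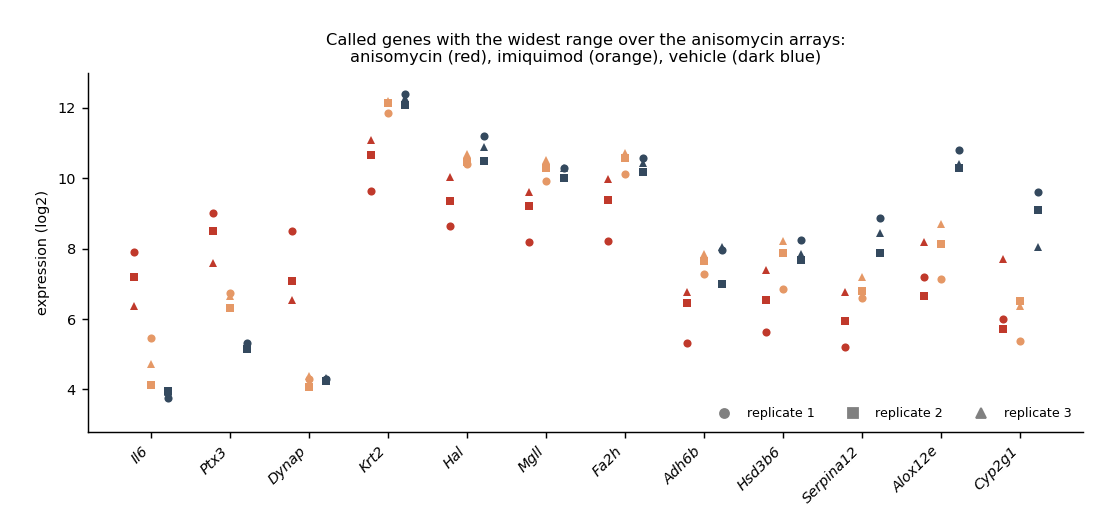
Expression (log2, y axis) of the 12 called genes with the widest range over the anisomycin arrays, in each anisomycin (red), imiquimod (orange) and vehicle (dark blue) array, with a symbol per replicate. Replicate 1 is the highest anisomycin array for Il6, Ptx3 and Dynap and the lowest for Krt2, Hal, Mgll, Fa2h, Adh6b, Hsd3b6 and Serpina12.

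Against imiquimod ears, 20.4% of genes were called, 2147 higher and 1912 lower with anisomycin. The 4059 calls fell to between 2523 and 2589 without any 1 of the imiquimod arrays or without anisomycin replicate 1 or 2, and they were 8557 with array weights. Genes of stress signalling and wounding were among those higher, and genes of energy metabolism and sterol synthesis among those lower. Of 76 respiratory chain genes 43 were lower and none higher, of 30 genes of the citric acid cycle and fat oxidation 18 lower and 1 higher, and of 19 of cholesterol synthesis 14 lower and none higher. Most of the cholesterol genes did not pass the test against vehicle, where 2 were called higher and 1 lower, or 6 and 1 without anisomycin replicate 1, 4 and 1 without vehicle replicate 1 and 2 and 4 without anisomycin replicate 3. Of 24 growth factor ligands of the FGF, VEGF, PDGF and HGF families, with insulin-like factors, 11 were higher and none lower, and of 34 integrin and basement membrane genes 14 were higher and 2 lower. These counts were smaller without some of the arrays: the respiratory chain count was 24 without imiquimod replicate 1 and 28 without imiquimod replicate 2 or anisomycin replicate 1, and the cholesterol count was 7 without imiquimod replicate 2, 8 without imiquimod replicate 3 and 9 without imiquimod replicate 1 or anisomycin replicate 1 or 2. The growth factor count was 7 without imiquimod replicate 3, and 11 higher and 2 lower without anisomycin replicate 3. The cream base and the ethanol differed between the treatments as well, so drug and carrier cannot be told apart in this comparison.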

How the data were processed

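Total RNA from whole ear skin was hybridised to Mouse Gene 1.0 ST arrays, and the deposited table holds log2 values that the authors made by RMA, per the submitters' processing notes. RMA background-corrects, quantile-normalizes and summarizes probes into probe sets. The quantile step sets the probes of all arrays to one distribution and can turn a change of very many genes into opposite shifts of the rest. The deposited probe set values do not share one distribution exactly, since their array medians differ. Its version does not appear in the labels. An array has no read depth, and 3 arrays per group limit the precision.

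Of 35556 rows, the platform annotation gave exactly 1 gene symbol for 21789, several for 1621 and none for 12146. RefSeq held the Entrez identifiers of 21698 of those with 1 symbol. Where a gene had several probe sets (999 genes), the brightest by its mean over all 9 arrays stood for it, which left 19938 genes. One limma model (3.58.1, R 4.3.3) with 3 groups was fitted to all genes and all 9 arrays with lmFit and eBayes, and Benjamini-Hochberg adjusted p-values over all genes under 0.05 were called. On simulated data with 200 changed genes the test of anisomycin against vehicle recovered 84% of changes of 0.5, 98.8% of 1 and 100% of 2 on the log2 scale, and 4.78% of its calls were false. The simulation drew independent noise with the same spread in every array. In the data 45.6% of genes were called and array weights ran from 0.299 to 8.16, so the simulated shares need not hold for this comparison.

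Groups and replicate numbers come from the labels. Deviations of same-numbered arrays from their group means had correlations of -0.201, -0.025 and 0.075 between anisomycin and vehicle, 0.196, -0.02 and 0.068 between anisomycin and imiquimod, and -0.088, -0.018 and 0.193 between imiquimod and vehicle, not over 0.1 in every pair, so no block was used in the reported fit. The members and the 112 gene lists (3276 different measured genes, 18 members matched by synonym) were chosen with earlier results of these data known, so no list was tested, and a list's counts are read against the shares of all genes called higher (22.3%) and lower (23.3%). Genes were named by a rule: the 15 largest rises and falls without overlap between groups, up to 4 called in each direction per list, all members of lists of at most 16, and the 12 called genes with the widest anisomycin range. A further 35 list members were named after their values were seen, among them Junb, Asns, Hspa1a, Mpo and Hif1a. Promoters were matched by Entrez identifier to a RefSeq table. The alternatives covered array weights, centring, repeated quantile normalization, means of probe sets, a filter on dim genes, a trended prior, the 6 arrays alone, the replicate block and each array left out.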

Additional observations from a re-analysis of the deposited data

Results flagged for a closer look

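Rows of the deposited table that the comparison does not use held signal too. Of the 12146 rows with no gene symbol, 3186 (26.2%) passed the test between anisomycin and vehicle ears, 1345 of them higher and 1841 lower, and 154 rose and 167 fell by at least 2-fold. Of the 1621 rows with several symbols, 588 (36.3%) were called, 352 higher and 236 lower, with 38 rises and 34 falls of at least 2-fold. These rows were tested with the same limma model and threshold, where 43.5% of the rows with 1 symbol were called. They are unnamed here and were not analysed further.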

How the results depend on the processing

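Of 966 named genes 775 were called, and 700 of these kept call and direction under all 18 alternatives, while 75 lost the call under at least 1 and 79 uncalled genes gained it. The count of called members stayed within 1.5 times for 99 of 112 lists. The count of genes called against vehicle was 9095 and ranged from 7921 to 8725 with 1 array left out, 7921 being the value without anisomycin replicate 2. Over the other alternatives it ran from 8124 with the 6 arrays alone to 10310 with array weights. Centring on medians or stable genes moved the median difference by 0.049 or -0.081. With the replicate block 8924 genes were called against vehicle. The count against imiquimod, 4059, was 8557 with array weights and ranged from 2523 without imiquimod replicate 1 to 4766 without vehicle replicate 2. It was 2547 and 2563 without imiquimod replicates 2 and 3, and 2589 and 2548 without anisomycin replicates 1 and 2. The values of 4 genes changed sign: with the quantile normalization repeated Hadha was at -0.01, Rpl10 at -0.03 and Rpl34 at -0.06, and with probe sets averaged per gene Nlrc5 was at 0.13. The cause was not tested. Dim genes limit what can be called, since 4.36% of the dimmest 10% of genes were called. The share of promoters of large rises with TATAAA, 31.5%, was 22% for the 500 largest and 27.6% without large gene families, both sets chosen after seeing the data.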
